A study of Homo sapiens with 4 samples.

Results

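The short arm of human chromosome 9 (9p) is described here as ribosome footprints read it in K562 and HepG2 cells. Its members were all genes of the deposited junction tables whose junctions lie on chromosome 9 and end below position 43000000 of the build GRCh38. Junctions given to more than 1 gene were left out, and so was MTAP, a gene of 9p21. This left 374 genes of the 35224 in the tables, with 3384 of the 344830 junctions that belong to a single gene. The study profiled ribosomes in 2 samples of K562, erythroid-like cells of a chronic myeloid leukaemia, and 2 samples of HepG2, hepatocyte-like cells of a liver tumour. Footprints are pieces of messenger RNA that a translating ribosome shields from nuclease, and the only footprints counted here are those that span a splice junction. The labels name neither a genetic change nor a treatment of either line, and the lines are compared as grown. Both samples of a line share 1 table, so no spread between samples can be given and every statement compares 2 tables.

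The band 9p21 holds the genes CDKN2A and CDKN2B. CDKN2A encodes p16, which restrains the cyclin-dependent kinases of the G1 phase, and ARF, which stabilises p53. CDKN2B encodes p15, a related kinase inhibitor. The band is lost from many tumours and cell lines, K562 among them, together with neighbours such as MTAP and the type I interferon genes. A gene whose DNA is absent leaves no footprints, but a silent gene leaves none either, and junction reads alone cannot tell these apart.

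The K562 table held 7487508 uniquely mapped junction reads and the HepG2 table held 9927809. The labels were checked on marker genes outside the arm. The 6 erythroid genes GATA1, RHAG, GYPB, KLF1, LMO2 and MYB had 13332 reads in K562 and 1 read in HepG2 in sum, and 5 of them were at 0 in HepG2. The 6 hepatocyte genes ALB, APOB, HNF4A, FGG, AHSG and TTR had 67 reads in K562 against 586168 in HepG2, and HNF4A and TTR were at 0 in K562. Reads were summed per gene, scaled with TMM factors over all genes, and turned into a ratio of K562 to HepG2 with an exact 95% interval (Clopper-Pearson). The interval covers counting error only, and it treats reads as independent although reads that carry no molecular identifier can be PCR copies of each other. A gene is called higher in a line where the whole interval lies past 2-fold. Where a line had 0 reads, 3 reads per table stood in as a floor, and folds written as "at least" are scaled ratios against that floor. They are not bounds of the 95% interval, which for 0 reads reaches past 3 reads and so allows a somewhat smaller fold.

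The exon joins that bound and fill the stretch without K562 reads are shown first, because each count rests on reads across these bases. Each is 15 bases of the upstream exon followed by 15 of the downstream exon, 5′ to 3′ on the gene's strand, from GENCODE release 29 transcripts on GRCh38. Capitals mark the last 3 bases of the one exon and the first 3 of the other, and the positions are those of the intron taken out. The FOCAD joins lie on the plus strand, in the order last read in K562, next one read in HepG2, first one with 20 or more reads in HepG2, and most read in HepG2. The CDKN2A and CDKN2B joins lie on the minus strand.
FOCAD, chr9:20717869-20720379: caatctacaaatCAGACTcctgctttgaac
FOCAD, chr9:20720535-20740235: gattccatcaacCAGAAAtacacatggctt
FOCAD, chr9:20765074-20770031: gttccatgtttgCAGGTAaaagatttgata
FOCAD, chr9:20951099-20952984: aaagtagagcctCTGTTCctactgactata
CDKN2A, chr9:21968243-21970901: cggaaggtccctCAGACAtccccgattgaa
CDKN2A, chr9:21971209-21974677: cggaggccgatcCAGGTCatgatgatgggc
CDKN2B, chr9:22006248-22008797: aggcgcgcgatcCAGGTCatgatgatgggc

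The second CDKN2A join and the CDKN2B join share their last 23 bases, so only the upstream exon tells these paralogs apart. None (0) of the joins printed here was found in transcripts of another gene.

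FOCAD (ENSG00000188352, chr9:20658309-20995955, plus strand), which encodes focadhesin, a tumour suppressor candidate of glioma, was read in K562 at its first exons only. Its first 6 junctions had 45 K562 reads and 69 HepG2 reads, a K562 to HepG2 ratio of 0.649 (95% interval 0.436 to 0.959). The other 56 junctions drew 0 reads in K562 and 611 reads in HepG2, so K562 was at least 205-fold lower against the floor. The ratio was 0.00489 with the floor, and its 95% interval reached up to 0.00603. In the order of the gene, K562 had 1, 0, 6, 1, 22 and 15 reads at the first 6 junctions, against 0, 0, 10, 0, 41 and 18 in HepG2. At the first 6 junctions the read counts of the lines overlapped, and after them no junction was read in K562 although 39 were read in HepG2. Those 39 had between 1 and 52 reads in HepG2, and 13 of them had 20 or more. Had K562 kept the ratio of the first 6 junctions, 398 reads would have stood after them. The split was placed after the last junction read in K562, so the 0 beyond it follows from the split. The fold, its interval and the expected count take the split as given and do not test it. The column of all mapped reads gave 0 in K562 and 644 in HepG2 over the same 56 junctions.

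**Figure D1:**
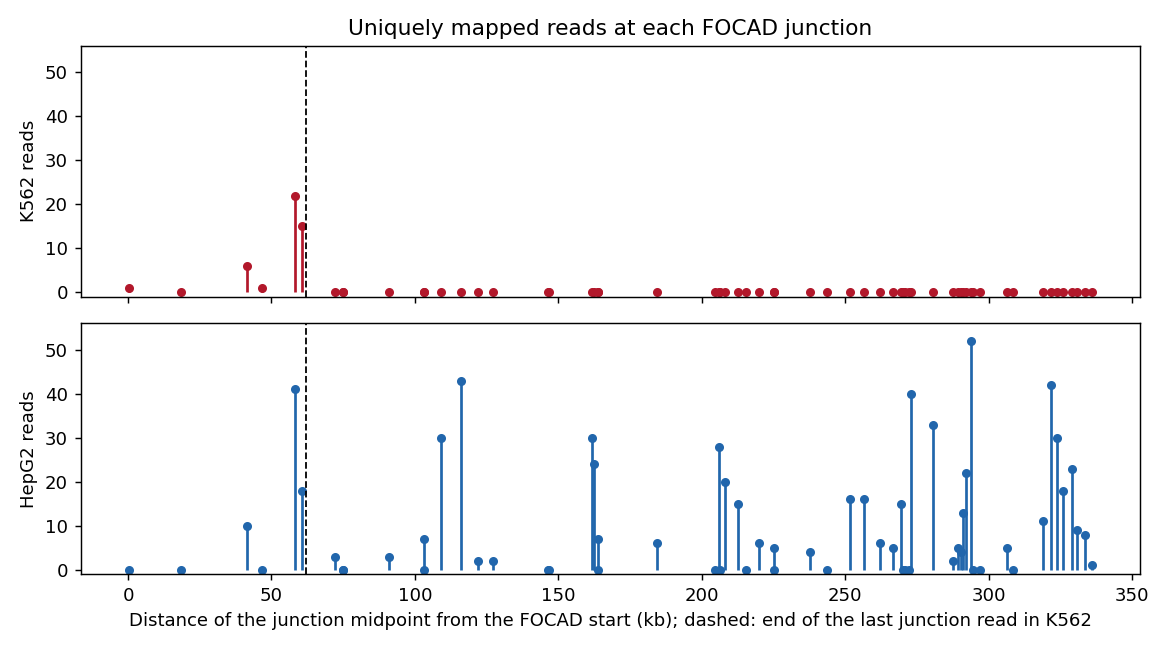
Uniquely mapped reads at each FOCAD junction in K562 (top) and HepG2 (bottom), against the distance of the junction's midpoint from the gene start in kb. Right of the dashed line, which marks the end of the last junction read in K562, all 56 points stand at 0 in K562, while in HepG2 they reach 52 reads.

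The place inside FOCAD where the reads stop is known only as well as HepG2 reads it. The last junction read in K562, chr9:20717869-20720379, had 15 reads in K562 against 18 in HepG2. The next 3 junctions read in HepG2 had 0 reads in K562 and 3, 3 and 7 in HepG2, which is too few to place an edge. The first junction with 20 or more reads in HepG2, chr9:20765074-20770031, had 0 K562 reads and 30 HepG2 reads. The change therefore lies between positions 20720379 and 20770031, since a change inside the intron of this junction would also remove its reads. That intron begins 44.7 kb after position 20720379. The same pattern was sought in every gene with at least 20 reads in K562 and over 100 in HepG2, as an end of the gene at 0 in K562 with at least 100 HepG2 reads on that end. It was found in 18 of 6318 genes (0.285%), FOCAD among them. The mirror pattern, an end at 0 in HepG2, was found in 8 of 6252 genes (0.128%). In most of the 18 the expected K562 count was low: it was 100 or more in 2, FOCAD and ASAH2, and in 3 of the 8 mirror genes.

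From that last FOCAD junction to the next junction read in K562 lay 6.03 Mb toward the centromere. The stretch is bounded by junctions that K562 read, so the absence of uniquely mapped K562 reads inside it follows from how it was drawn. It held 188 member junctions, of which 42 were read in HepG2 with 620 reads in sum. Of these, 39 junctions and 611 reads are the FOCAD tail already described, and 3 junctions and 9 reads belong to other members. The column of all mapped reads contains the uniquely mapped ones, so it could differ only by reads mapped to more than 1 place. In it K562 had 0 reads there as well. Counted together with MTAP and with junctions given to more than 1 gene, the stretch drew 0 reads in K562 and 990 reads in HepG2. MTAP itself, which recycles methionine from a by-product of polyamine synthesis, had 0 reads in K562 against 249 in HepG2, and its 3 shared junctions had 0 in K562 and 121 in HepG2.

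The 2 kinase inhibitor genes were read at low depth. CDKN2A (ENSG00000147889, chr9:21967753-21995301, minus strand) had 0 uniquely mapped reads in K562 and 8 in HepG2, of which 6 crossed the first join shown above for it and 2 the second. With all mapped reads it had 0 in K562 and 37 in HepG2. CDKN2B (ENSG00000147883, chr9:22002903-22009363, minus strand) had 0 in K562 and 1 in HepG2. The second CDKN2A join belongs to the p16 transcript. The junction chr9:21971209-21994138, which leads from the first exon of ARF, had 0 reads in either line. Counts this low support no ratio for CDKN2B, whose HepG2 count lies below the floor of 3 reads.

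The stretch held 21 member genes, 8 of them protein coding, and most were unread in both lines. Besides CDKN2A and CDKN2B, CDKN2B-AS1 (ANRIL), the long noncoding RNA antisense to CDKN2B, had 0 reads in K562 and 1 read in HepG2, in the column of all mapped reads only. The remaining 18 had 0 reads in both lines, and HACD4, a fatty acid elongation enzyme, IFNA1, DMRTA1, a transcription factor, ELAVL2, a neuronal RNA-binding protein, IZUMO3, a sperm protein, and MIR31HG, the host of miR-31, were among them. Of 18 genes in a list of type I interferons and genes among them, the tables held junctions for 2, IFNA1 and IFNK, which were unread in both lines. Most interferon genes have no intron, so junction reads cannot report on them. Among members, only CDKN2A, CDKN2B, CDKN2B-AS1 and the tail of FOCAD could have shown a K562 read at the level at which HepG2 was read.

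The edge toward the centromere could not be placed as closely. The last junction before it that was read in HepG2 was that of CDKN2B, and the 4.74 Mb that follow held no uniquely mapped read in either line. The first read after this gap came from AL451137.1 (ENSG00000254261, chr9:26746953-26786874, plus strand), a long intergenic noncoding RNA. It drew 28 reads in K562 and 0 reads in HepG2, all at its last junction, at least 9.29-fold higher in K562. CAAP1 (ENSG00000120159), a regulator of caspase activity, came next with 377 K562 reads and 357 HepG2 reads, a ratio of 1.05 (0.907 to 1.22). The 2 joins that mark this side, AL451137.1 on the plus strand and the most-read junction of CAAP1 on the minus strand, with 163 reads in K562 and 122 in HepG2, are these.
AL451137.1, chr9:26748313-26786785: cagccatgtggaACTGCCagctgccctttc
CAAP1, chr9:26842648-26861065: tggaattaaaacAAGGAAaaggggaagata

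**Figure D2:**
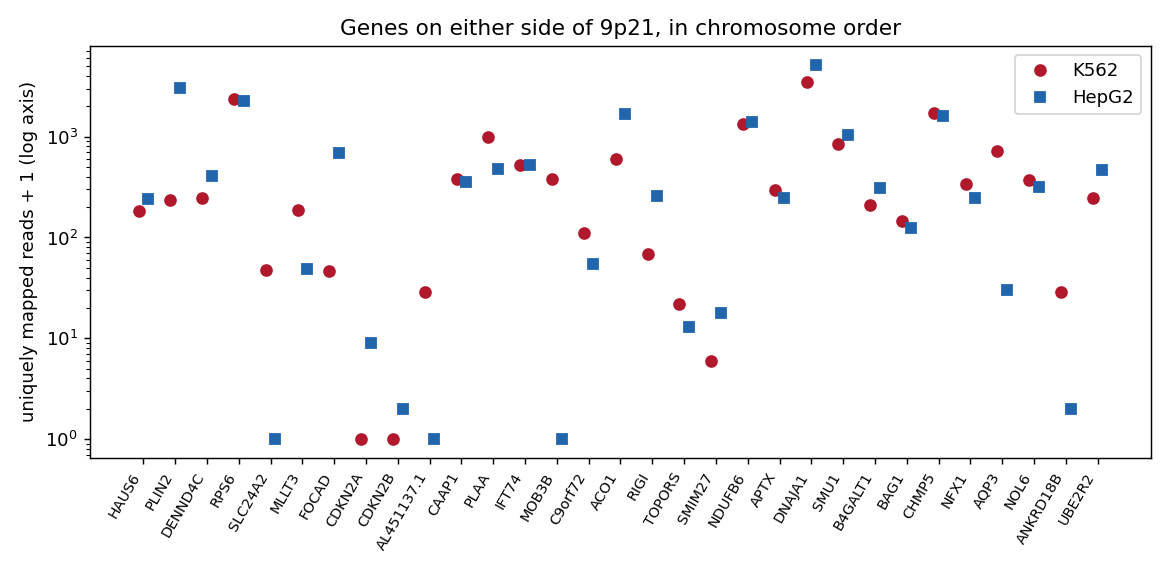
Uniquely mapped reads plus 1, on a log axis, for 31 genes on either side of 9p21 in chromosome order, with K562 as circles left of HepG2 as squares; a gene at 0 stands at 1. CDKN2A and CDKN2B stand at 0 in K562 and at 8 and 1 reads in HepG2, while SLC24A2, AL451137.1 and MOB3B stand at 0 in HepG2.

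Genes next to the stretch were read in K562 on both sides. RPS6, a protein of the small ribosomal subunit, had 2383 reads in K562 against 2264 in HepG2, but these were a small share of all its mapped reads (12658 in K562 and 8992 in HepG2). SLC24A2, a sodium and calcium exchanger, had 47 K562 reads and 0 HepG2 reads, at least 15.6-fold higher in K562. MLLT3, a chromatin reader of the super elongation complex, drew 186 reads in K562 and 48 reads in HepG2, 3.86-fold higher in K562 (2.80 to 5.41). On the centromere side, PLAA, a ubiquitin-binding partner of VCP, had 998 reads in K562 against 476 in HepG2, a ratio of 2.09 whose interval (1.87 to 2.33) holds 2. IFT74, a protein of transport along cilia, had 523 K562 reads and 521 HepG2 reads, a ratio of 0.999 (0.883 to 1.13). MOB3B, of the MOB family of kinase activators, drew 383 reads in K562 and 0 reads in HepG2, at least 127-fold higher in K562. In a list of 17 genes around 9p21, 16 had junctions and 8 were tested: 3 were higher in K562 (SLC24A2, MLLT3 and MOB3B), FOCAD was higher in HepG2 and 4 were neither. Over all 10956 genes with 20 or more reads, 16.8% were higher in K562 and 21.9% in HepG2. The median log2 ratio of the 8 was 1.04, beside -0.01 over all genes.

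The call for MLLT3 (ENSG00000171843, chr9:20341665-20622543, minus strand), which lies next to FOCAD on the telomere side, rested on 1 junction. Of 4 junctions that lead into the same downstream exon, chr9:20365745-20382380 took 123 of 130 reads in K562 (94.6%, 89.2 to 97.8) and 0 of 7 in HepG2. The annotation places this junction outside the coding part. It is the most upstream junction of the transcripts that hold it, which puts it in the 5′ untranslated part. The coding junction chr9:20365745-20413720 took 0 of 130 reads in K562, an interval that reaches up to 2.80%, and 7 of 7 in HepG2 (59.0 to 100%). HepG2 thus crossed from the preceding coding exon and K562 from a nearer exon. The joins, on the minus strand, share their last 15 bases, the start of the common exon.
MLLT3, chr9:20365745-20382380: tttcttttgaaaGAGTCTgaacaacccagt
MLLT3, chr9:20365745-20413720: tcctctaaatctGATTCTgaacaacccagt

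Upstream of these junctions, 6 MLLT3 junctions had 1 read in K562 and 18 in HepG2. Downstream of the shared exon, 7 junctions had 51 reads in K562 against 23 in HepG2. Among them, the junction that leaves the shared exon, chr9:20363606-20365668, had 0 reads in K562 and 3 in HepG2. K562 reads that entered this exon were thus not seen to continue at the junction after it. With its most-read junction taken out, MLLT3 had a log2 ratio of 0.43, and with coding junctions only it had 0.18, so that it was no longer called in either case.

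**Figure D3:**
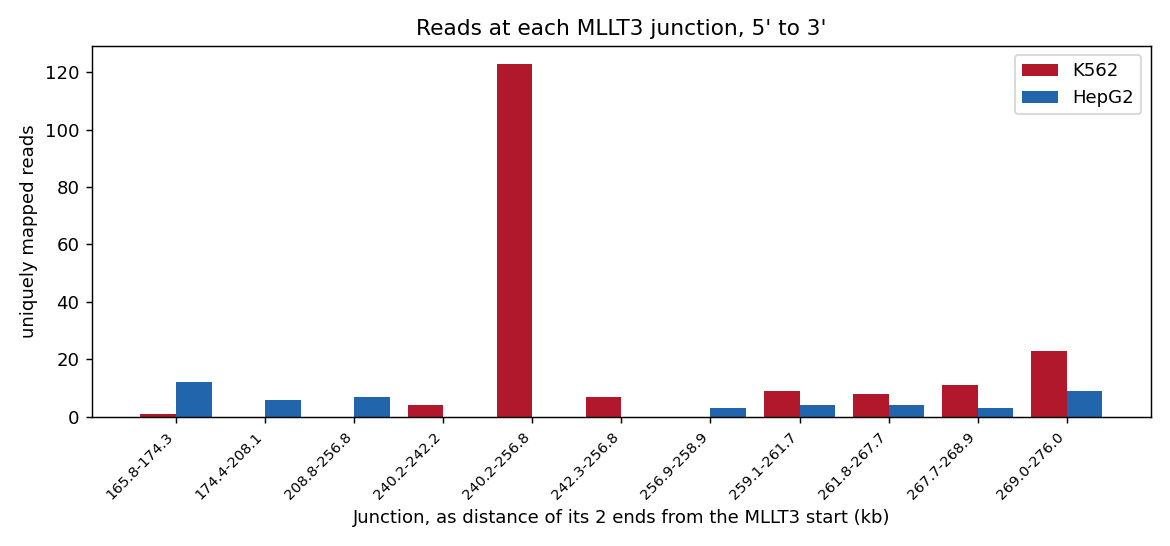
Uniquely mapped reads at the 11 MLLT3 junctions read in either line, 5′ to 3′, with K562 left of HepG2 and each junction named by the distance of its ends from the gene start in kb. The tallest bar, 123 reads in K562 and 0 in HepG2, leads into the exon that HepG2 reached with 7 reads from farther upstream.

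Outside the stretch, genes at 0 in K562 were scattered along the arm. Of 85 genes of the rest of the arm with 20 or more reads in HepG2, 5 had 0 reads in K562 (5.88%), which is near the 6.32% over all genes, beside 3.50% on 9q. FREM1 (ENSG00000164946), an extracellular matrix protein of basement membranes, had 0 K562 reads and 1418 HepG2 reads, at least 475-fold lower in K562. AK3, the mitochondrial GTP:AMP phosphotransferase, drew 0 reads in K562 and 740 reads in HepG2, at least 248-fold lower. GLDC, the decarboxylase of the glycine cleavage system, had 0 reads in K562 against 485 in HepG2, at least 162-fold lower. All mapped reads left AK3 at 0 in K562 and 1313 in HepG2, and GLDC at 0 in K562 and 1527 in HepG2. RECK, a membrane-bound inhibitor of matrix metalloproteinases, had 0 K562 reads and 114 HepG2 reads, at least 38.2-fold lower. CA9, a carbonic anhydrase known for its response to hypoxia, drew 0 reads in K562 and 55 reads in HepG2, at least 18.4-fold lower. Each of the 5 stood alone: the nearest genes on either side with 20 or more reads in HepG2 were read in K562. In the other direction, 3 of 80 genes with 20 or more reads in K562 had 0 in HepG2 (3.75%), beside 5.23% over all genes, and these were SLC24A2, MOB3B and AL451137.1.

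With every gene that has 20 or more reads in HepG2 placed in order, the run of genes at 0 in K562 that holds 9p21 is 1 gene long, MTAP. Runs of up to 5 such genes occur elsewhere in the genome, 3 of them of that length. Counted in whole genes, the stretch is therefore no longer than other runs. Nearly all that HepG2 showed in it was the tail of FOCAD and MTAP.

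The rest of the arm, without FOCAD and the stretch, was next compared with 9q. Of its 99 genes with 20 or more reads over both lines, 13 (13.1%) were higher in K562, 22 (22.2%) were higher in HepG2 and 64 were neither. Of 329 genes of 9q, 51 (15.5%) were higher in K562, 74 (22.5%) were higher in HepG2 and 204 were neither. The median log2 ratio was -0.33 on the rest of the arm and 0.04 on 9q, with quartiles of -1.19 and 0.46 on the arm and -1.02 and 0.85 on 9q. Over all genes, 16.8% were higher in K562 and 21.9% were higher in HepG2. With total reads in place of TMM, the median is 0.09 on the rest of the arm and 0.46 on 9q, and over all genes it is 0.41 in place of -0.01. The split of all calls then turns to 2653 genes higher in K562 and 1925 higher in HepG2, beside 1836 and 2402 with TMM. With that scaling, 16 genes of the rest of the arm were higher in K562 and 15 in HepG2, and 82 and 56 of 9q, so on both the balance of calls turned. The arm's median lay 0.37 below that of 9q on the log2 scale, a difference that no scaling of the tables can change. With all mapped reads it lay 0.10 below, and with a minimum of 1 read the medians were equal. No test of this difference can be made, since genes are not replicates and each line has 1 table.

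The sides of the stretch gave different counts, again without a test. On the telomere side, 4 of 32 genes (12.5%) were higher in K562, 14 (43.8%) were higher in HepG2, and the median log2 ratio was -0.98. With scaling by total reads, 5 were higher in K562 and 8 in HepG2, and with 20 or more reads in each table, 2 were higher in K562 and 7 in HepG2 of 22. On the centromere side, 9 of 67 genes (13.4%) were higher in K562, 8 (11.9%) were higher in HepG2, and the median was 0.07. The ratio lay below 1 in 25 of 32 genes on the telomere side and in 32 of 67 on the centromere side. Genes of the telomere side took 0.117% of all gene reads in K562 (0.115 to 0.120) and 0.164% in HepG2 (0.162 to 0.167). Single genes weighed heavily: RPS6 gave 2383 of the 8452 K562 reads, and PLIN2 gave 3067 of the 15792 HepG2 reads. By all mapped reads the shares lay closer together, at 20244 of 9712765 for K562 and 26233 of 11567843 for HepG2. RPS6 supplied 12658 and 8992 of those. Genes of the centromere side took 0.456% in K562 (0.451 to 0.461) and 0.361% in HepG2 (0.357 to 0.365). For 9q the shares were 2.40% in K562 and 2.38% in HepG2. In windows of 5 Mb, 9 of 11 genes from 0 to 5 Mb and 7 of 7 from 5 to 10 Mb had a ratio below 1, with medians of -1.30 and -1.92. From 10 to 15 Mb the median was -0.85 over 3 genes, and from 15 to 20 Mb it was -0.46 over 10. Windows of 9q had medians from -1.48 (65 to 70 Mb, 5 genes) to 2.45 (60 to 65 Mb, 2 genes). They included -1.06 from 80 to 85 Mb (8 genes) and -0.98 from 105 to 110 Mb (11 genes). Window medians as low as that of the whole telomere side thus also occurred on 9q. The telomere side lay 1.01 below 9q in log2 median, and 0.73 below it where 20 or more reads were asked of each table. Whole chromosomes other than 9 had medians between -1.31 (chromosome 20) and 0.52 (chromosome X). Copy number of the arm was not measured, and its part in this difference was not tested.

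**Figure D4:**
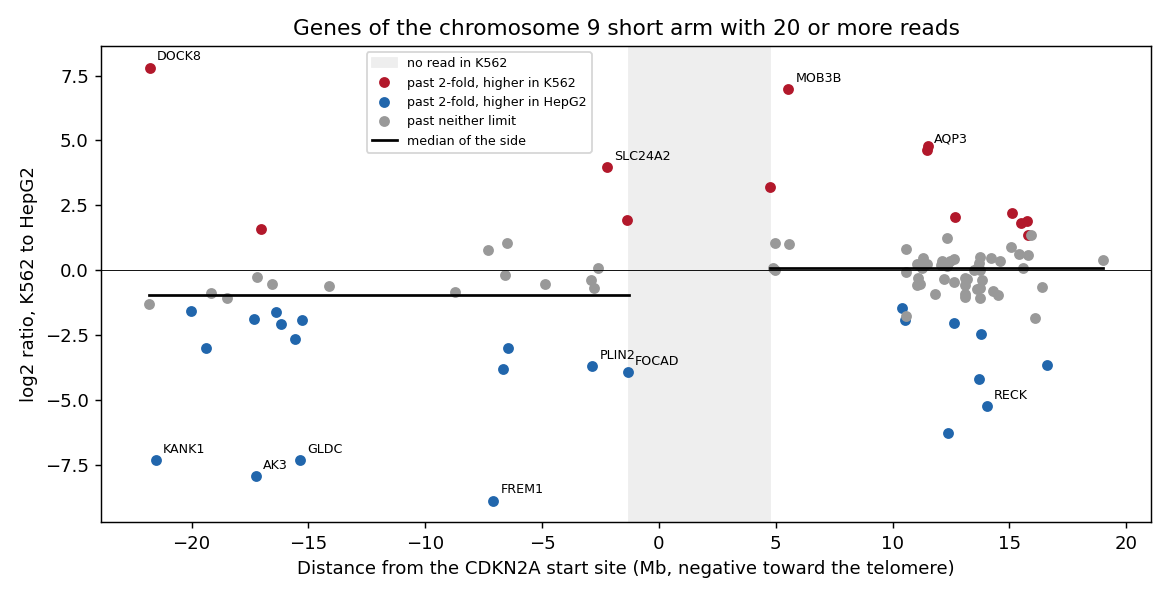
Log2 ratio of K562 to HepG2 for the 100 genes of the arm with 20 or more reads, against distance from the CDKN2A start in Mb; red and blue points are past 2-fold, the grey band has no K562 read, and lines are the medians of the sides. The line on the telomere side stands at -0.98 and that on the centromere side at 0.07.

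**Figure D5:**
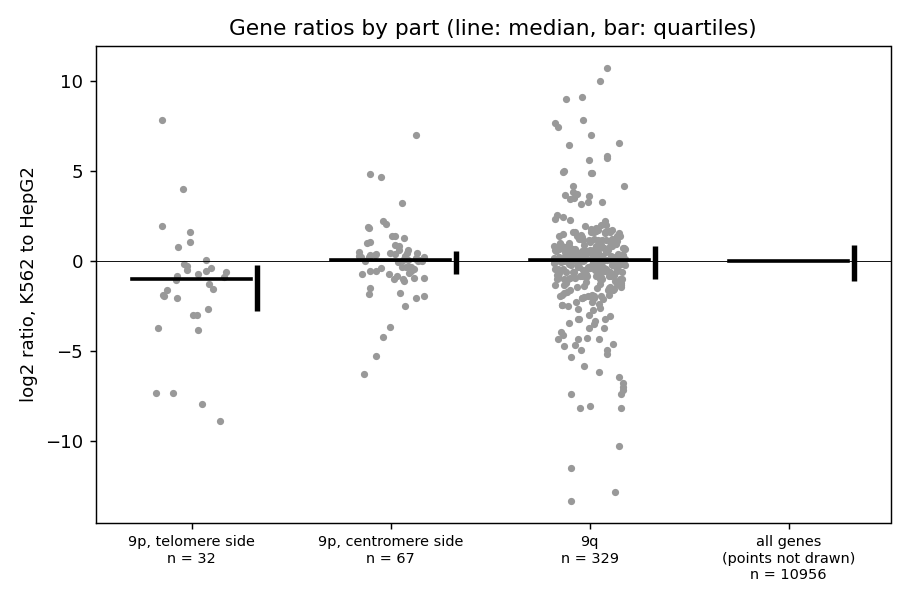
Log2 ratio of K562 to HepG2 of each gene (grey points) on the telomere side of 9p, the centromere side of 9p and 9q, with the median (line) and quartiles (bar), and the same over all genes without points. The telomere side has its median at -0.98 over 32 genes, and the others lie between -0.01 and 0.07.

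How gene calls spread over the junctions of a gene is described next. The junctions followed are among those whose sum gave the call, so their sides are no separate evidence for it. The share over all genes was not computed. Of 16 genes of the rest of the arm that were higher in HepG2 and could be followed over at least 3 junctions of 10 or more reads, 14 had all of these on the HepG2 side. Of 9 genes higher in K562, 8 had all of them on the K562 side, and MLLT3 was the other. DOCK8 had 19 of 19 on the K562 side, FREM1 had 29 of 29 on the HepG2 side and POLR1E had 11 of 11 on the K562 side. FREM1 was unread in K562 and DOCK8 nearly unread in HepG2, so their junctions could hardly fall on the other side.

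Signalling and immune genes of 9p24, at the telomere end, included DOCK8 (ENSG00000107099, chr9:214854-465259), an exchange factor for CDC42 in blood cells. It had 675 reads in K562 against 3 in HepG2, 224-fold higher in K562 (76.3 to 1089). JAK2, the kinase of the erythropoietin receptor, had 156 K562 reads and 52 HepG2 reads, 2.99-fold higher in K562 (2.17 to 4.17). All 8 JAK2 junctions with 10 or more reads were on the K562 side, but the call was lost with 99% intervals and without its most-read junction. PLGRKT, a plasminogen receptor, drew 108 reads in K562 and 157 reads in HepG2, a ratio of 0.685 (0.531 to 0.880). Of the list of 10, 3 were tested, 2 were higher in K562 (16.8% over all genes) and 6 were unread in both lines, with a median log2 ratio of 1.58. KANK1, a regulator of actin that neighbours DOCK8, went the other way, with 4 reads in K562 and 647 in HepG2, 163-fold higher in HepG2 (63.2 to 598).

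Among chromatin and transcription genes, 10 were tested: 1 was higher in K562 (MLLT3), 3 were higher in HepG2 (SMARCA2, UHRF2 and KDM4C) and 6 were neither, with a median log2 ratio of -0.45. Over all genes 61.3% were neither, so the list is near the background. SMARCA2, the BRM helicase of the SWI/SNF complex, had 189 reads in K562 against 563 in HepG2, 2.99-fold higher in HepG2 (2.53 to 3.55). Of its 29 junctions with 10 or more reads, 28 were on the HepG2 side, but the call was lost under total-read scaling. UHRF2, a ubiquitin ligase that binds modified DNA, had 27 K562 reads and 172 HepG2 reads, 6.40-fold higher in HepG2. KDM4C, a histone demethylase, drew 13 reads in K562 and 49 reads in HepG2, 3.79-fold higher in HepG2 (2.02 to 7.61). PSIP1, the chromatin tether LEDGF, had 1878 reads in K562 against 897 in HepG2, a ratio of 2.08 (1.92 to 2.26). NFX1, a zinc finger transcription factor, had 338 K562 reads and 244 HepG2 reads, and SNAPC3, a subunit of the factor for small nuclear RNA genes, had 335 in K562 and 378 in HepG2.

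Genes of RNA processing and the ribosome held 4 of the 13 calls toward K562. Of 11 tested, 4 were higher in K562 (POLR1E, ZCCHC7, TRMT10B and EXOSC3), 1 was higher in HepG2 (RIGI) and 6 were neither, with a median log2 ratio of 0.22, beside 16.8% and 21.9% called over all genes. POLR1E (ENSG00000137054), a subunit of RNA polymerase I, which transcribes ribosomal RNA genes, drew 2121 reads in K562 and 594 reads in HepG2, 3.55-fold higher in K562 (3.24 to 3.90). EXOSC3, a subunit of the RNA exosome, had 753 reads in K562 against 292 in HepG2, 2.57-fold higher in K562 (2.24 to 2.95). ZCCHC7, of a complex that hands RNA to the exosome, had 161 K562 reads and 35 HepG2 reads, 4.58-fold higher in K562. TRMT10B, a transfer RNA methyltransferase, drew 70 reads in K562 and 19 reads in HepG2, 3.67-fold higher in K562. The 4 lie close together on the chromosome, from ZCCHC7 (chr9:37120539-37358149) to EXOSC3. RIGI (DDX58), the sensor of viral RNA, had 67 reads in K562 against 256 in HepG2, 3.84-fold higher in HepG2 (2.92 to 5.10). SMU1, a spliceosome protein, had 842 K562 reads and 1048 HepG2 reads, and PUM3, an RNA-binding protein of the nucleolus, had 475 in K562 and 863 in HepG2, neither past 2-fold.

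Metabolic and transport genes held 7 of the 22 calls toward HepG2. Of 18 tested, 1 was higher in K562 (AQP3), 7 were higher in HepG2 and 10 were neither, with a median log2 ratio of -0.75, beside 16.8% higher in K562 and 21.9% higher in HepG2 over all genes. The 7 were AK3, GLDC, PLIN2, ACO1, TTC39B, ERMP1 and VLDLR. PLIN2 (ENSG00000147872), the coat protein of lipid droplets, drew 236 reads in K562 and 3067 reads in HepG2, 13.1-fold higher in HepG2 (interval from 11.4). TTC39B, which acts on lipid metabolism in mouse liver, had 33 reads in K562 against 466 in HepG2, 14.2-fold higher in HepG2. VLDLR, a lipoprotein receptor, had 3 K562 reads and 24 HepG2 reads, 8.04-fold higher in HepG2 (2.44 to 41.7). ERMP1, a peptidase of the endoplasmic reticulum, drew 351 reads in K562 and 1460 reads in HepG2, 4.18-fold higher in HepG2. ACO1, the cytosolic aconitase that also binds iron-responsive elements, had 603 reads in K562 against 1667 in HepG2, 2.78-fold higher in HepG2 (2.53 to 3.05), a call lost with scaling by total reads. AQP3 (ENSG00000165272), a channel for water and glycerol found on red cells, had 723 K562 reads and 29 HepG2 reads, 24.8-fold higher in K562 (17.1 to 37.3). GRHPR, which reduces glyoxylate, drew 1878 reads in K562 and 1205 reads in HepG2, a ratio of 1.55 (1.44 to 1.67). NDUFB6, a subunit of respiratory complex I, had 1348 K562 reads against 1400 HepG2 reads, a ratio of 0.958. Of the 7 called toward HepG2, ACO1 alone lies on the centromere side, so the list and the side of the arm overlap.

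Genes of protein quality control included some of the most read of the arm. Of 15 tested, 0 were higher in K562, 2 were higher in HepG2, CDC37L1 among them, and 13 were neither, with a median log2 ratio of -0.34, where 61.3% of all genes were neither. VCP, the segregase that extracts ubiquitinated proteins, had 3342 reads in K562 against 6381 in HepG2, a ratio of 0.521. DNAJA1, a cochaperone of HSP70, had 3489 K562 reads and 5180 HepG2 reads, a ratio of 0.670. STOML2, a scaffold protein of the inner mitochondrial membrane, drew 998 reads in K562 and 2023 reads in HepG2, a ratio of 0.491 (0.455 to 0.530), with 9 of 9 junctions on the HepG2 side. CHMP5, of the ESCRT-III machinery, had 1701 in K562 and 1611 in HepG2. CDC37L1, a cochaperone of HSP90, had 25 K562 reads and 93 HepG2 reads, 3.74-fold higher in HepG2.

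Cytoskeletal and mitotic genes gave 2 calls in 14 tested, both higher in HepG2 (KANK1 and CCDC171), with a median log2 ratio of 0.00, beside 16.8% higher in K562 and 21.9% higher in HepG2 over all genes. TLN1, the talin that links integrins to actin, drew 3551 reads in K562 and 2514 reads in HepG2, a ratio of 1.41 (1.34 to 1.48). CLTA, a clathrin light chain, had 1814 reads in K562 against 1317 in HepG2, a ratio of 1.37. MELK, a kinase of dividing cells, had 860 K562 reads and 676 HepG2 reads, a ratio of 1.27.

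Of 11 tested genes in a list of DNA repair and signalling, 1 was higher in K562 (IL11RA), 3 were higher in HepG2 (RIC1, RECK and NPR2) and 7 were neither, with a median log2 ratio of -0.36. These counts lie near the 16.8%, 21.9% and 61.3% over all genes. APTX, which repairs abortive ligation ends, drew 294 reads in K562 and 248 reads in HepG2, a ratio of 1.18 (0.993 to 1.40). RIC1, an exchange factor for the GTPase RAB6, had 88 reads in K562 against 270 in HepG2, 3.08-fold higher in HepG2 (2.42 to 3.97), a call lost under total-read scaling. NPR2, a receptor for C-type natriuretic peptide, had 9 K562 reads and 50 HepG2 reads, 5.58-fold higher in HepG2. IL11RA, the receptor for interleukin 11, drew 42 reads in K562 and 10 reads in HepG2, 4.18-fold higher in K562 (2.06 to 9.34), with 1 junction of 10 or more reads, a call lost with 99% intervals and with coding junctions only. MPDZ, a scaffold with many PDZ domains, had 124 reads in K562 against 222 in HepG2, and UNC13B, which primes vesicles, had 148 in K562 and 189 in HepG2.

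Both ends of the ranking also held genes outside these lists. MYORG, a glycosidase, had 3 K562 reads and 232 HepG2 reads, 77.7-fold higher in HepG2 (26.3 to 379), all but a few at 1 junction. ANKRD18B had 28 reads in K562 and 1 read in HepG2, 27.9-fold higher in K562 (4.61 to 1140), with no junction of 10 or more reads. Its all mapped reads were 59 in K562 and 13 in HepG2. Among long noncoding genes of the arm, EBLN3P had 190 reads in K562 against 101 in HepG2, a ratio of 1.87 (1.46 to 2.41), and CDC37L1-DT had 8 in K562 and 6 in HepG2.

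Choice among alternative junctions differed in MELK on the rest of the arm. A splice site was compared where it had 20 or more reads in each line, and counted where a junction's share differed by 20 points or more with exact intervals that did not overlap. Of 103 sites in 37 genes, 3 were counted (2.91%), 2 of them in MELK, beside 3.12% over all genes and 2.63% on 9q. In MELK, the junction chr9:36581740-36589535, which skips an exon, took 101 of 120 K562 reads into its acceptor (84.2%, 76.4 to 90.2) against 22 of 53 HepG2 reads (41.5%, 28.1 to 55.9). The junction that includes the exon, chr9:36583713-36589535, took 19 of 120 in K562 (15.8%) and 31 of 53 in HepG2 (58.5%). The donor of the skipping junction was the second site, at 101 of 151 in K562 (66.9%) and 22 of 56 in HepG2 (39.3%).

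Most members gave no ratio. Of the 374 genes, 231 had no uniquely mapped read in either line, 43 had reads but fewer than 20 over both lines, and 100 were tested. The tested share was 24.6% on the telomere side, 30.2% on the centromere side and 34.9% on 9q. From 39 to 43 Mb, next to the centromere, 56 genes had 79 uniquely mapped reads in K562 and 54 in HepG2, and 506 mapped reads in K562 and 291 in HepG2, and 1 of them was tested. Most of the mapped reads of this block thus mapped to more than 1 place. Duplicated sequence as the reason was not tested.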

How the data were processed

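Ribosome profiling of K562 and HepG2 was deposited as 1 junction table per line, shared by the 2 samples of that line, per the labels. Per the file headers, the deposited columns give raw counts at each annotated junction, one of every mapped read and one of reads mapped to a single place. Cycloheximide was present at lysis and RiboZero removed ribosomal RNA, per the labels' protocols. cutadapt, Bowtie2, STAR 2.6.0 and GRCh38 are named in the submitters' processing notes, and which program counted and on which annotation release is not given in the sources used here. Signal tracks are not analysed here.

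Of 350863 junctions, 99.8% matched introns of GENCODE release 29. Each gene's count is the sum of its uniquely mapped reads at junctions of that gene alone. TMM factors (edgeR 4.0.16, R 4.3.3) were computed on all 10956 genes that reached 20 reads in sum, and exact intervals with scipy 1.17.1. Counts with known ratios were also simulated, with Poisson counting error only and no PCR copies. Their outcome is not given here. Alternatives were size factors of DESeq2 1.42.0, total-read scaling, 99% intervals, all mapped reads, a minimum of 100 or 1 reads, coding junctions only, genes without their most-read junction, shared junctions given to each gene, arm limits of 39 and 70 Mb and a shorter 9q. A minimum of 20 reads in each table, and all alternatives for the sides of the arm, were chosen after seeing the data. Named by rule were the genes at the stretch and its 3 neighbours on each side, 8 genes at each end of the ranking, up to 4 most-read members and 2 against the median per list, counted junction shares and 3 long noncoding genes. Others named were chosen after their values were seen. Members and lists were chosen with earlier results of these data known. No test across samples was possible. A gene that these rules name is not reported here.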

Additional observations from a re-analysis of the deposited data

Results flagged for a closer look

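Of the members, 7 genes had no uniquely mapped read in either line but did have mapped reads, which the comparisons leave out. WASHC1, a subunit of the WASH complex with copies on other chromosomes, had 233 mapped reads in K562 and 98 in HepG2. AL592293.1 had 90 in K562 and 53 in HepG2. ANKRD20A2P had 49 in K562, AL356218.1 had 43, ANKRD20A7P and AMYH02020865.1 had 25 each, and PGM5P3-AS1 had 5. These reads map to more than 1 place, and which copy they came from was not tested.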

How the results depend on the processing

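No paired analysis was possible because each deposited column pools the samples of a line. Of 154 values of the main results under the alternatives, 132 stayed within their limits and 22 moved. Some of those that stayed could not move, such as medians under wider intervals and 9p values under a shorter 9q. With scaling by total reads, the median of the rest of the arm turned sign, to 0.0923 from -0.33, and the balance of calls turned on the rest of the arm and on 9q. The median was then 0.49 on the centromere side and 0.46 on 9q, 8 genes of the telomere side were higher in HepG2, and 82 of 9q in K562. With a minimum of 1 read, the medians of the centromere side and of 9q turned to -0.02. The balance on the centromere side, 9 to 8, turned or became even under 5 alternatives. With a minimum of 100 reads, 8 genes of the rest of the arm were higher in K562, and 5 of the centromere side in each line. Without the most-read junction of each gene, 8 genes of the rest of the arm were higher in K562, 2 of them on the telomere side. With 20 or more reads in each table, calls for K562 and HepG2 were 6 and 10 of 71 on the rest of the arm, 2 and 7 of 22 on the telomere side, 4 and 3 of 49 on the centromere side, and 26 and 38 of 238 on 9q. Fewer genes are compared there, and genes near 0 in a line are gone by construction. The distance without K562 reads was 6.12 Mb between junctions that HepG2 also read, beside 6.03 Mb. The run of genes at 0 in K562, MTAP included, was 3 with a minimum of 1 read and 2 with all mapped reads, beside 1. At 30 points, 1 splice site was counted, beside 3. The telomere side stayed below 9q in median under all 12 alternatives run, by 0.52 (minimum of 1 read) to 1.02. Changes of scaling and wider intervals cannot alter this difference, so those alternatives did not test it. For named genes, 9 values in 6 genes lost the call (ACO1, IL11RA, JAK2, MLLT3, RIC1 and SMARCA2) and 4 values in PLAA, PSIP1 and STOML2 gained one. The cause of these shifts was not tested. The edge in FOCAD rests on junctions with few HepG2 reads. The edge toward the centromere follows 4.74 Mb without a uniquely mapped read in either line.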
